A study of Homo sapiens with 45 samples.

Results

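The genes described here are 8 genes of the mesenchymal transition, namely SNAI1, SNAI2, TWIST1, ZEB1, ZEB2, VIM, FN1 and CDH2. They were chosen by name, and all 8 had a row in a table of read counts for 57353 gene symbols. The table covered polyadenylated RNA of 45 libraries from 3 established breast cancer cell lines. MDA-MB-134-VI, called MM134, is a line of invasive lobular carcinoma, as is MDA-MB-330, called MM330. HCC1428 is a line of invasive ductal carcinoma. Every culture spent 3 days in medium with charcoal-stripped serum, which holds little steroid hormone, and was then transfected with a small interfering RNA (siRNA). After 24 h it received vehicle (0.01% ethanol) or 100 pM estradiol (E2) for another 24 h before RNA was taken. A non-targeting siRNA was given with vehicle in the siNT group and with E2 in siNT_E2. The estrogen receptor was the target in siER_E2, FOXA1 in siFOXA1_E2 and MDC1 in siMDC1_E2, each with E2. Each line thus had 5 groups of 3 libraries, and all groups with a targeting siRNA also had E2. Whether the 3 libraries in a group stem from different cultures was not stated in the labels, and p-values therefore measure only the spread between these libraries.

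In a mesenchymal transition, epithelial cells give up their junctions and polarity and take on features of motile mesenchymal cells. SNAI1 and SNAI2 are zinc finger repressors, TWIST1 is a basic helix-loop-helix factor, and ZEB1 and ZEB2 are zinc finger and homeodomain repressors. These factors bind short DNA elements called E-boxes and are known for silencing CDH1, the gene of the epithelial adhesion protein E-cadherin. VIM encodes vimentin, an intermediate filament protein of mesenchymal cells. FN1 encodes fibronectin, a matrix glycoprotein, and CDH2 encodes N-cadherin, the adhesion protein that often replaces E-cadherin during the transition. E2 is the natural ligand of the estrogen receptor, which ESR1 encodes. FOXA1 opens chromatin for the receptor, and MDC1 is a scaffold protein of the DNA damage response. Lobular carcinomas typically lose E-cadherin by mutation of CDH1.

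Libraries held 21.04 to 36.7 M counts. Of the 45, 11 had a share of counts at processed pseudogenes of 0.337% to 0.494% and 34 had 0.123% to 0.158%. HCC1428 had 5 of the 11, MM330 had 4 and MM134 had 2, spread unevenly over the groups. In HCC1428, siNT had 2, siER_E2 2 and siNT_E2 1, while siFOXA1_E2 and siMDC1_E2 had 0. In MM330, each group had 1 except siFOXA1_E2 with 0, and in MM134 siER_E2 and siFOXA1_E2 had 1 each. Where a printed call or count of the 8 genes changed without these libraries, the value is given beside it. Counts of gene lists are from all libraries unless stated. Levels are given in CPM, the count of a gene scaled by the total of its library. Each targeted transcript was lower with its own siRNA than in siNT_E2 in all 3 lines: FOXA1 stood at 111 ± 2.17 CPM (mean ± SD, n = 3) against 437 ± 13.2 in MM134, and MDC1 at 39.98 ± 3.37 against 173 ± 3.43. In MM134, ESR1 stood at 533 ± 9.14 CPM in siNT_E2 and 60.2 ± 3.73 in siER_E2, and it was also low in siFOXA1_E2 at 108 ± 3.22 and in siMDC1_E2 at 120 ± 1.01. CDH1 stood at 21.95 ± 1.83 CPM in MM134 siNT, 761 ± 10.7 in MM330 siNT and 1253 ± 22.2 in HCC1428 siNT. A list of 6 luminal epithelial markers summed to 5950 to 15425 CPM in MM134, 6497 to 19568 in MM330 and 10373 to 17222 in HCC1428, with no gene at 0. The fibroblast list of 10 genes summed to 71.6 to 117 CPM in MM134, 20.8 to 38.4 in MM330 and 43.8 to 83.0 in HCC1428. COL3A1 had no count in any of these lines, and DCN and LUM had none in MM134. Of the 10 genes, 1 had enough counts to be tested in MM134, 1 in MM330 and 2 in HCC1428, so few genes carry these sums. Immune markers (8 genes) summed to at most 6.03 CPM and endothelial markers (6 genes) to at most 11.1 CPM in any library.

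A gene counted as measured in a line when it passed the filter on low counts across the 15 libraries of that line. In MM134 6 of the 8 genes were measured, namely SNAI1, TWIST1, ZEB1, VIM, FN1 and CDH2. In MM330 5 were measured, namely SNAI1, TWIST1, ZEB1, VIM and FN1, and in HCC1428 3 were measured, namely SNAI1, TWIST1 and FN1. SNAI2 (ENSG00000019549.11) was not measured in any line: it had no count in the 15 MM134 libraries or the 15 MM330 libraries and 4 counts in all in HCC1428. ZEB2 (ENSG00000169554.19, GRCh38 chromosome 2, 144364364 to 144524583) was not measured in any line either, with 3 counts in all in MM134, 4 in MM330 and 7 in HCC1428. CDH2 had 3 counts over the MM330 libraries. In HCC1428, VIM had 27 counts over 15 libraries, ZEB1 had 70 and CDH2 had 63. Of the 63 CDH2 counts in HCC1428, 31 were in the siNT group, with 5, 7 and 19 per library, and 4 were in siNT_E2. CDH2 was not tested within HCC1428 in the reported fit, and alternatives that did call it for E2 are given at the end. A count of 0 allows up to 3 counts in a library, which was 0.0887 to 0.120 CPM averaged over the libraries of a group. Genes that passed the filter because 1 group was high enough could differ between groups more readily than other genes. The counts of called genes below cover measured genes only, which does not remove this. SNAI1 in MM330 was such a gene, through siFOXA1_E2.

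**Figure D1:**
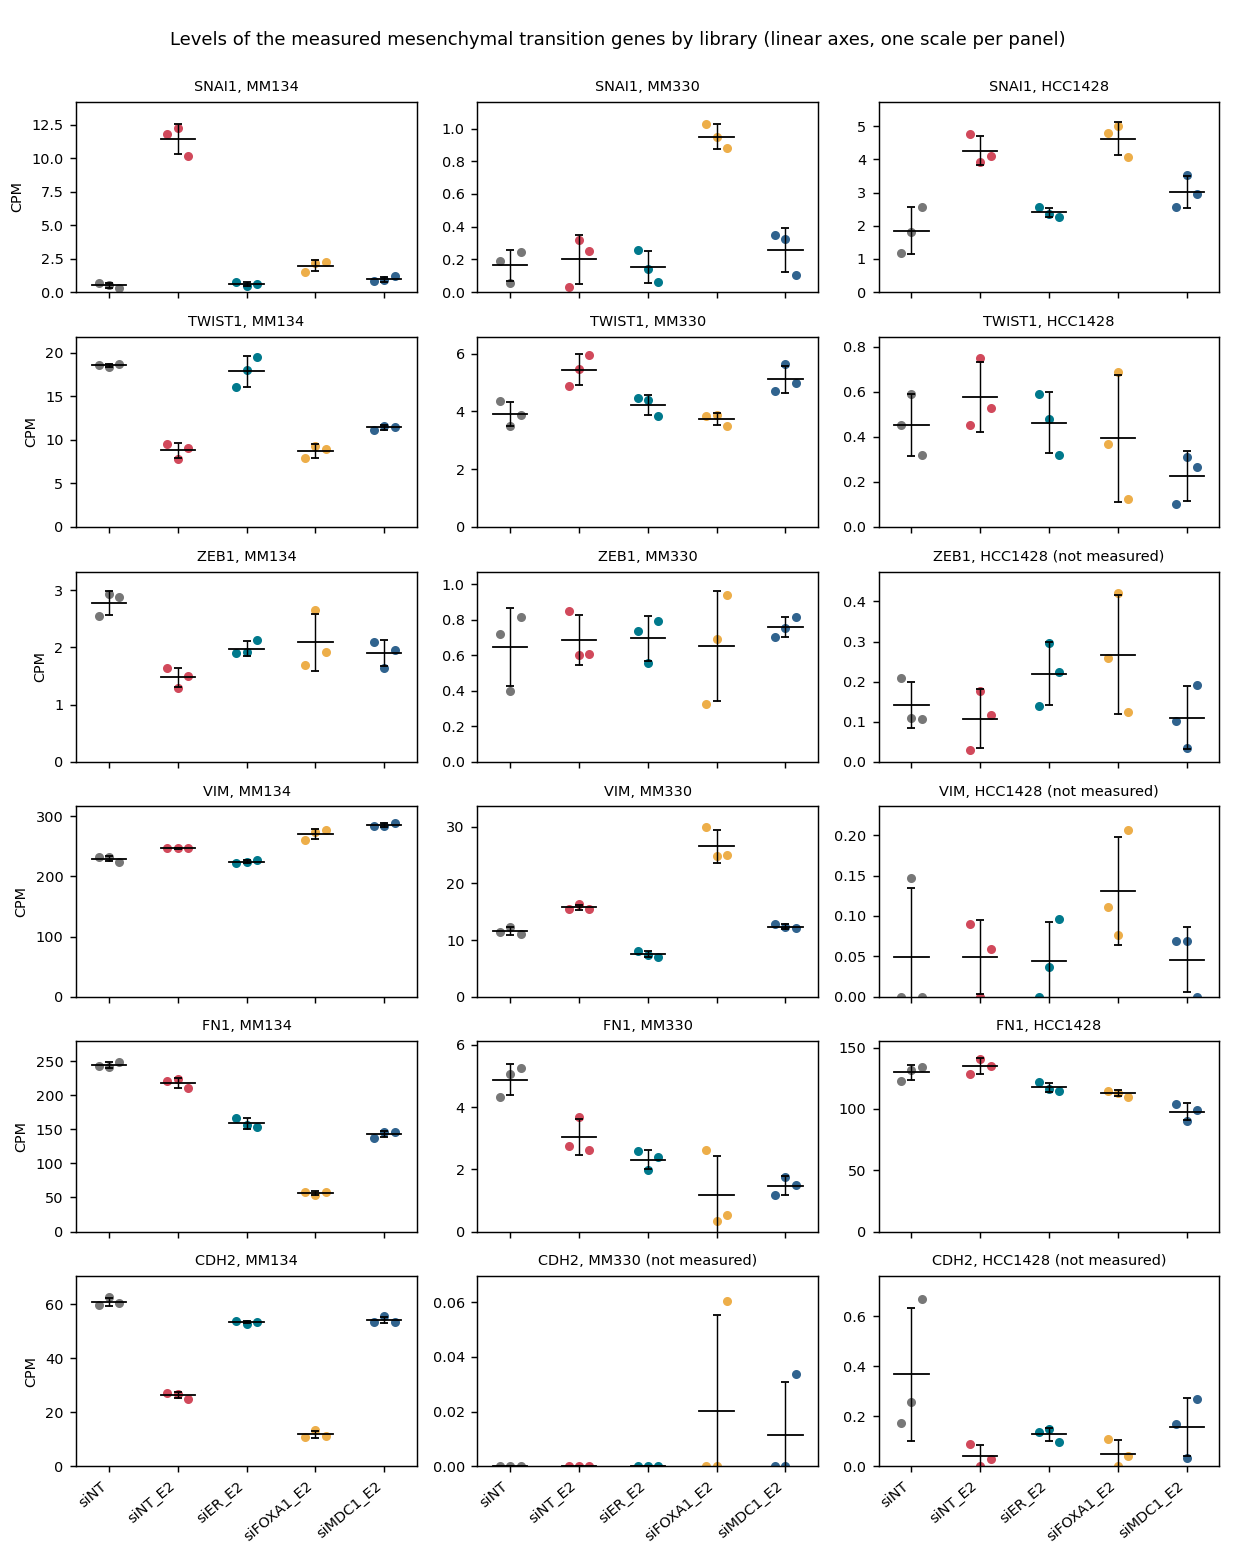
Levels of the 6 genes measured in at least 1 line, in CPM on linear axes with a separate scale in each panel, for the 3 libraries of each group (points), the group mean (horizontal line) and SD (bar). SNAI1 in MM134 siNT_E2 lies between 10.2 and 12.3 CPM, above every other MM134 library. Panels marked as not measured hold few counts and were not tested in the reported fit.

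Promoter windows are shown for ZEB1, CDH2 and FN1, because ZEB1 and CDH2 both fell with E2 in MM134 and FN1 fell after FOXA1 knockdown. The sequences come from RefSeq on GRCh38.p14, which had entries for 5 of the 8 genes (ZEB1, ZEB2, VIM, FN1 and CDH2). Each window holds the 250 bases before an annotated transcription start, written 5′ to 3′ on the strand of the gene. Bases inside annotated exons of the gene are not printed, so the FN1 run stops 104 bases before that start. Capitals mark E-boxes (CANNTG) and estrogen response half-sites (GGTCA or TGACC), searched on both strands.
ZEB1, chr10:31318167-31318416, plus strand, 250 bases: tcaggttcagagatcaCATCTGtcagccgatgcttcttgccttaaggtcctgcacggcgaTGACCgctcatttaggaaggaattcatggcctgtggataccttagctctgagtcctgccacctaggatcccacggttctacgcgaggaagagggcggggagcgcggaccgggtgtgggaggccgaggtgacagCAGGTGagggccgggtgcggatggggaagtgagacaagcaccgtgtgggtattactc
CDH2, second annotated start, chr18:28036642-28036891, minus strand, 250 bases: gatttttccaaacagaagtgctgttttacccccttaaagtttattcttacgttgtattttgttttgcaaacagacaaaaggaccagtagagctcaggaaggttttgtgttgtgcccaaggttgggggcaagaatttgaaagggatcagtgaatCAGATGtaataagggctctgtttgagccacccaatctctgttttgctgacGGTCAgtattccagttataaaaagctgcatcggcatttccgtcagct
FN1, chr2:215436173-215436318, minus strand, 146 bases: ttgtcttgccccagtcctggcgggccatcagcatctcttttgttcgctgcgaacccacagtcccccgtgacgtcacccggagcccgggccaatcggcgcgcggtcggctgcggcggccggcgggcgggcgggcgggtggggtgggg
The ZEB1 window is the first of 7 annotated starts and held E-boxes 234 and 57 bases before its start, the second of them the CAGGTG form that SNAI1 and the ZEB factors bind, and a half-site at 190 bases. Of the 7 ZEB1 windows, 4 held an E-box, 2 the CAGGTG or CACCTG form and 2 a half-site. The CDH2 window held an E-box at 97 bases and a half-site at 47 bases before the start, and the window of the other CDH2 start held neither. In the full FN1 window, of which 104 bases are not printed, and in the VIM window (chr10:17227991-17228240), none of these letters were found. The forkhead letters TGTTTAC or GTAAACA were not found there either. Among 35116 promoter windows of 250 bases, 61.82% held CANNTG, 17.49% held CAGGTG or CACCTG (which are also CANNTG), 32.65% held a half-site and 2.979% held the forkhead letters. Such letters are common, and a match describes the sequence only.

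SNAI1 (ENSG00000124216.3, chromosome 20, 49982999 to 49988886) rose with E2 in MM134 more than any other of the genes described. The 3 siNT libraries stood at 0.677, 0.548 and 0.320 CPM and the 3 siNT_E2 libraries at 11.8, 12.3 and 10.2 CPM. This was a 21.7-fold difference (log2 fold change 4.44 ± 0.23 SE, adjusted p = 2.42e-13), and the groups lay far apart. In bulk RNA, a change in the number of cells of a kind and a change in RNA per cell cannot be told apart. In counts, the siNT libraries held 20, 21 and 9 reads and the siNT_E2 libraries 448, 379 and 273. With receptor knockdown in the presence of E2, the libraries stood at 0.754, 0.487 and 0.610 CPM, below siNT_E2 (log2 fold change -4.17 ± 0.22 SE, adjusted p = 4e-13). The siER_E2 libraries overlapped the siNT libraries (log2 difference 0.27 ± 0.28 SE, adjusted p = 0.503). FOXA1 knockdown gave 1.49, 2.16 and 2.27 CPM (log2 fold change -2.53 ± 0.19 SE, adjusted p = 1.49e-10 against siNT_E2). MDC1 knockdown gave 0.803, 0.903 and 1.19 CPM (log2 fold change -3.58 ± 0.21 SE, adjusted p = 2.87e-12). All 3 knockdown groups were thus below siNT_E2 in every library.

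The MM134 knockdown groups were not all at the level of the vehicle group. The siFOXA1_E2 libraries were above siNT (log2 difference 1.91 ± 0.24 SE, adjusted p = 4.41e-07) and above siER_E2 (1.64 ± 0.23 SE, adjusted p = 3e-06). They were also above siMDC1_E2 (1.05 ± 0.22 SE, adjusted p = 0.000358). The siMDC1_E2 libraries were above siNT (0.86 ± 0.26 SE, adjusted p = 0.00831), a call that ended without siNT replicate 3 (adjusted p = 0.0517) or without siMDC1_E2 replicate 3 (adjusted p = 0.0518). Their difference from siER_E2 missed the threshold (0.60 ± 0.25 SE, adjusted p = 0.0599) and passed it without siER_E2 replicate 1 (adjusted p = 0.0406) or siMDC1_E2 replicate 1 (adjusted p = 0.0452). The order of mean levels in MM134 was siNT_E2, siFOXA1_E2, siMDC1_E2, siER_E2 and siNT. Neither siMDC1_E2 and siER_E2 nor siER_E2 and siNT passed the test, while the other neighbours did. ESR1 itself was low in all 3 knockdown groups of MM134, as given above, and its part in the SNAI1 levels was not tested.

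In HCC1428, SNAI1 also rose with E2, by less. The siNT libraries stood at 1.18, 1.80 and 2.57 CPM and the siNT_E2 libraries at 4.76, 3.92 and 4.09 CPM, with no overlap (log2 fold change 1.22 ± 0.21 SE, adjusted p = 5.25e-05). The siNT libraries at 1.18 and 1.80 CPM and the siNT_E2 library at 4.76 CPM were of higher pseudogene share. Among those of lower share, siNT stood at 2.57 CPM, a single library, and siNT_E2 at 3.92 and 4.09 CPM. Receptor knockdown gave 2.56, 2.37 and 2.27 CPM (log2 fold change -0.86 ± 0.20 SE, adjusted p = 0.00139), again below every siNT_E2 library. FOXA1 knockdown gave 4.80, 5.001 and 4.08 CPM, which overlapped siNT_E2 (log2 fold change 0.08 ± 0.19 SE, adjusted p = 0.742). MDC1 knockdown gave 2.57, 3.53 and 2.94 CPM, all below siNT_E2, and the difference just missed the threshold (log2 fold change -0.51 ± 0.20 SE, adjusted p = 0.0626). It passed without siMDC1_E2 replicate 2 (adjusted p = 0.0483) and with DESeq2 (adjusted p = 0.0444), among other settings. The order of means was siFOXA1_E2, siNT_E2, siMDC1_E2, siER_E2 and siNT, and no pair of neighbours in that order passed the test. The siFOXA1_E2 libraries were above siNT (1.30 ± 0.21 SE, adjusted p = 3.37e-05) and siER_E2 (0.95 ± 0.20 SE, adjusted p = 0.000826). Their difference from siMDC1_E2 (0.59 ± 0.20 SE, adjusted p = 0.0204) was lost without siMDC1_E2 replicate 1 (adjusted p = 0.0962), among others. That of siMDC1_E2 from siNT (0.71 ± 0.21 SE, adjusted p = 0.00924) was lost without siNT replicate 1 (adjusted p = 0.0552) or the libraries of higher pseudogene share (adjusted p = 0.507). Without siNT replicate 3, the siER_E2 libraries were above siNT (0.67, adjusted p = 0.0346).

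MM330 held little SNAI1, between 1 and 29 counts per library. The siNT libraries held 5, 2 and 6 counts (0.189, 0.0566 and 0.245 CPM) and the siNT_E2 libraries 1, 9 and 7 counts (0.0340, 0.319 and 0.249 CPM). These groups overlapped, and no E2 response was detectable at this depth (log2 fold change 0.35 ± 0.75 SE, adjusted p = 0.819). The siER_E2 libraries held 7, 4 and 2 counts and the siMDC1_E2 libraries 9, 9 and 3, both overlapping siNT_E2 (adjusted p = 0.763 and 0.831). FOXA1 knockdown gave 22, 22 and 29 counts, or 1.03, 0.948 and 0.878 CPM, above every other MM330 library (log2 fold change 2.23 ± 0.67 SE). SNAI1 passed the filter in MM330 only through these 3 libraries, so the group had to be high and the difference is given as a description with no test. Its positive sign followed from the same filter and is not read as a contrast with MM134.

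Across the lines, the vehicle level of SNAI1 was highest in HCC1428, then MM134, then MM330, and each pair differed. With E2, MM134 was highest at 11.4 ± 1.12 CPM, against 4.26 ± 0.439 in HCC1428 and 0.201 ± 0.149 in MM330 (mean ± SD, n = 3). SNAI1P1, a processed pseudogene copy on which reads could be split, held 8, 0 and 5 counts over MM134, MM330 and HCC1428, beside 1500, 137 and 1366 for SNAI1.

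**Figure D2:**
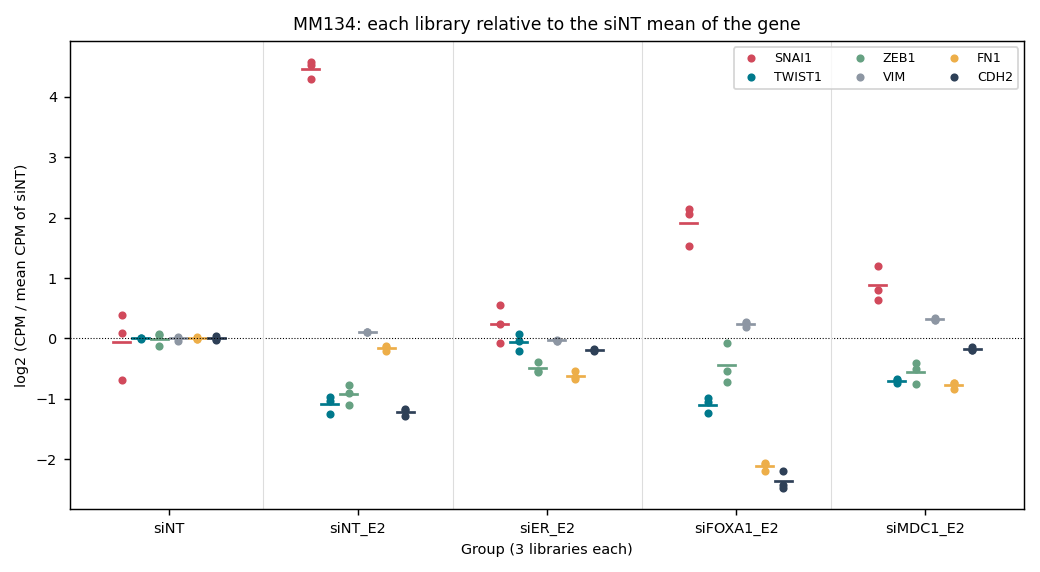
Each MM134 library relative to the siNT mean of the same gene, as log2 of the CPM ratio, for the 6 measured genes (points, 3 libraries per group, short lines at their mean). SNAI1 stands above 4 in siNT_E2, where TWIST1, ZEB1 and CDH2 stand near −1. In siFOXA1_E2, FN1 and CDH2 lie below −2.

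TWIST1 (ENSG00000122691.12, chromosome 7, 19020991 to 19117672) fell with E2 in MM134, where SNAI1 rose. Vehicle libraries stood at 18.6, 18.4 and 18.7 CPM and the siNT_E2 libraries at 9.48, 7.85 and 9.05 CPM (log2 fold change -1.09 ± 0.08 SE, adjusted p = 3.22e-10). Receptor knockdown gave 16.04, 18.02 and 19.6 CPM (log2 fold change 1.05 ± 0.08 SE, adjusted p = 5.31e-10), which overlapped siNT. With FOXA1 knockdown the libraries stood at 7.86, 9.33 and 8.98 CPM and overlapped siNT_E2 (log2 fold change -0.01 ± 0.09 SE, adjusted p = 0.963). MDC1 knockdown gave 11.1, 11.6 and 11.5 CPM, above siNT_E2 (log2 fold change 0.36 ± 0.09 SE, adjusted p = 0.0014) and below siNT (-0.73 ± 0.08 SE, adjusted p = 1.62e-07). The order of means was siNT, siER_E2, siMDC1_E2, siNT_E2 and siFOXA1_E2, in which siNT and siER_E2, and siNT_E2 and siFOXA1_E2, did not pass the test against each other.

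In MM330, TWIST1 rose with E2 instead, from 4.35, 3.51 and 3.88 CPM in siNT to 4.89, 5.46 and 5.97 CPM in siNT_E2 (log2 fold change 0.49 ± 0.14 SE, adjusted p = 0.0121). The groups did not overlap, but the call ended without siNT replicate 2 (adjusted p = 0.0595), without siNT_E2 replicate 3 (adjusted p = 0.057), without the libraries of higher pseudogene share (adjusted p = 0.0737) and with no filter (adjusted p = 0.126). FOXA1 knockdown gave 3.83, 3.88 and 3.48 CPM, all below siNT_E2 (log2 fold change -0.55 ± 0.14 SE, adjusted p = 0.00336). Receptor knockdown gave 4.46, 4.39 and 3.84 CPM (log2 fold change -0.37 ± 0.14 SE, adjusted p = 0.05), just missing the threshold, and was called without siNT_E2 replicate 1 (adjusted p = 0.0497) or with RLE scaling (adjusted p = 0.0476). MDC1 knockdown gave 4.71, 5.64 and 4.98 CPM and overlapped siNT_E2 (log2 fold change -0.09 ± 0.14 SE, adjusted p = 0.738). In HCC1428, TWIST1 held 3 to 18 counts per library, or 0.103 to 0.750 CPM. None of its 4 comparisons was called there. The siMDC1_E2 libraries, at 0.103, 0.312 and 0.268 CPM, lay below the siNT_E2 libraries at 0.452, 0.750 and 0.526 CPM without passing the test (log2 fold change -1.32 ± 0.53 SE, adjusted p = 0.0712). This difference passed when only those 6 libraries were fitted (adjusted p = 0.0477) and without the libraries of higher pseudogene share (adjusted p = 0.0492).

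ZEB1 (ENSG00000148516.21, chromosome 10, 31318495 to 31529814) fell with E2 in MM134. The siNT libraries stood at 2.54, 2.92 and 2.88 CPM and the siNT_E2 libraries at 1.64, 1.30 and 1.49 CPM (log2 fold change -0.92 ± 0.19 SE, adjusted p = 0.000229). The means of all 3 knockdown groups were above that of siNT_E2, with libraries at 1.90, 1.91 and 2.12 CPM in siER_E2, 1.69, 2.65 and 1.92 in siFOXA1_E2 and 2.09, 1.64 and 1.95 in siMDC1_E2. Only the siFOXA1_E2 difference passed the test (log2 fold change 0.50 ± 0.19 SE, adjusted p = 0.028), and it rested on single libraries. Without siFOXA1_E2 replicate 2, which stood at 2.65 CPM, it was 0.30 (adjusted p = 0.206). It was also not called without siNT_E2 replicate 2 (adjusted p = 0.104), without siNT_E2 replicate 3 (adjusted p = 0.0561) with DESeq2 (adjusted p = 0.0516), with the compared libraries only (adjusted p = 0.0588) or with no filter (adjusted p = 0.112). The receptor knockdown (log2 fold change 0.44 ± 0.19 SE, adjusted p = 0.0514) was called without siNT_E2 replicate 1 (adjusted p = 0.0495), and MDC1 knockdown was not (log2 fold change 0.35 ± 0.19 SE, adjusted p = 0.144). In MM330, ZEB1 stood between 0.327 and 0.939 CPM, the 5 groups overlapped, and none of the 4 comparisons was called. ZEB1-AS1, transcribed from the opposite strand with overlapping exons, held 4270, 2860 and 1810 counts in MM134, MM330 and HCC1428, beside 989, 290 and 70 for ZEB1. The strand setting of the counting is not given in the sources used here, so reads of both genes may not have been told apart.

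CDH2 (ENSG00000170558.8, chromosome 18, 27950966 to 28177446), the N-cadherin gene, was measured only in MM134, where it differed in all 4 comparisons. Vehicle libraries stood at 59.8, 62.7 and 60.6 CPM and the siNT_E2 libraries at 27.2, 26.9 and 24.996 CPM (log2 fold change -1.22 ± 0.05 SE, adjusted p = 4.19e-15). Receptor knockdown gave 53.9, 52.9 and 53.6 CPM (log2 fold change 1.04 ± 0.05 SE, adjusted p = 6.22e-14), and MDC1 knockdown gave 53.4, 55.6 and 53.6 CPM (log2 fold change 1.03 ± 0.05 SE, adjusted p = 1.03e-13). Both groups stayed slightly below siNT, with differences of -0.18 ± 0.05 SE (adjusted p = 0.00429) and -0.20 ± 0.05 SE (adjusted p = 0.00116). FOXA1 knockdown gave 10.96, 13.4 and 11.3 CPM, lower than siNT_E2 (log2 fold change -1.14 ± 0.06 SE, adjusted p = 1.32e-13). The siFOXA1_E2 level was 5.15-fold below siNT. The order of means was siNT, siMDC1_E2, siER_E2, siNT_E2 and siFOXA1_E2, and of these neighbours siMDC1_E2 and siER_E2 did not pass the test against each other.

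VIM (ENSG00000026025.15, chromosome 10, 17228259 to 17237593), the vimentin gene, changed little in MM134. Its libraries spanned 223 to 290 CPM over the 5 groups. The siNT libraries stood at 233, 232 and 224 CPM and the siNT_E2 libraries at 246, 247 and 246 CPM (log2 fold change 0.09 ± 0.03 SE, adjusted p = 0.00747). Knockdown of the receptor, FOXA1 and MDC1 gave log2 fold changes of -0.11 ± 0.03 SE, 0.14 ± 0.03 SE and 0.20 ± 0.03 SE, with adjusted p of 0.0014, 0.000111 and 1.74e-06. All 4 were called, and the largest was a 1.15-fold difference.

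In MM330, VIM was lower and changed more. Without E2 the libraries stood at 11.4, 12.3 and 11.02 CPM and the siNT_E2 libraries at 15.5, 16.3 and 15.4 CPM (log2 fold change 0.46 ± 0.10 SE, adjusted p = 0.00164). Receptor knockdown gave 8.15, 7.43 and 6.98 CPM (log2 fold change -1.07 ± 0.10 SE, adjusted p = 2.68e-07), which was also below siNT (-0.61 ± 0.10 SE, adjusted p = 0.000281). FOXA1 knockdown gave 29.9, 24.9 and 24.9 CPM, above every other MM330 library (log2 fold change 0.75 ± 0.09 SE, adjusted p = 3.51e-06). MDC1 knockdown gave 12.8, 12.3 and 12.04 CPM (log2 fold change -0.35 ± 0.10 SE, adjusted p = 0.0136), a call that ended without the libraries of higher pseudogene share (adjusted p = 0.111). The groups siNT and siMDC1_E2 overlapped. VIM-AS1, on the opposite strand, held 2133 counts in MM134 and 1581 in MM330, beside 121445 and 6080 for VIM. The fibroblast markers summed to 26.9 to 28.2 CPM in MM330 siNT, 28.6 to 29.5 in siNT_E2 and 33.96 to 38.4 in siFOXA1_E2, and 7 of the 10, COL1A2, COL3A1 and DCN among them, had no count in any MM330 library. Their part in the VIM levels was not tested.

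FN1 (ENSG00000115414.18, chromosome 2, 215360440 to 215436172), the fibronectin gene, fell with FOXA1 knockdown in all 3 lines, in MM330 with a call that rested on single libraries. In MM134 the siNT libraries stood at 242, 241 and 249 CPM and the siNT_E2 libraries at 222, 224 and 210 CPM (log2 fold change -0.17 ± 0.04 SE, adjusted p = 0.000846). FOXA1 knockdown gave 58.2, 53.2 and 57.8 CPM (log2 fold change -1.94 ± 0.04 SE, adjusted p = 1.06e-19), lower than every library of the other groups. Receptor knockdown gave 167, 156 and 153 CPM (log2 fold change -0.44 ± 0.04 SE, adjusted p = 3.1e-09), and MDC1 knockdown gave 137, 146 and 146 CPM (log2 fold change -0.62 ± 0.04 SE, adjusted p = 1.43e-11). In the order siNT, siNT_E2, siER_E2, siMDC1_E2 and siFOXA1_E2, each group differed from the next. The fibroblast markers summed to 116 to 117 CPM in MM134 siNT, 94.5 to 101 in siNT_E2 and 72.1 to 75.3 in siFOXA1_E2, with COL1A2, COL3A1, DCN, LUM and THY1 at 0 in all MM134 libraries. Their part in the FN1 levels was not tested.

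In MM330, FN1 was low and spread widely under FOXA1 knockdown. Its siNT libraries stood at 4.31, 5.07 and 5.26 CPM and the siNT_E2 libraries at 2.75, 3.69 and 2.63 CPM, which did not overlap but did not pass the test (log2 fold change -0.68 ± 0.44 SE, adjusted p = 0.318). Fitted on those 6 libraries alone, the difference passed (adjusted p = 0.0133). The siFOXA1_E2 libraries stood at 2.62, 0.345 and 0.515 CPM, from 56, 8 and 17 counts (log2 fold change -1.41 ± 0.48 SE, adjusted p = 0.0234). The first of them lay close to siNT_E2, and replicates 2 and 3 lay far below. Over genes with enough counts, replicate 1 differed from them by a chi-square per degree of freedom of 14.1 and 16.5. Replicates 2 and 3 differed from each other by 3.09, and pairs of MM330 siER_E2 libraries by 7.71 to 18.0. Replicate 1 was also the smallest library, at 21.04 M counts. Whether this bears on its FN1 level was not tested. The call ended without siFOXA1_E2 replicate 2 (adjusted p = 0.0891), siFOXA1_E2 replicate 3 (adjusted p = 0.108) or siNT_E2 replicate 2 (adjusted p = 0.0748), and when only the 6 compared libraries were fitted (adjusted p = 0.103). Without siFOXA1_E2 replicate 1 the log2 fold change was -2.80 (adjusted p = 2.76e-07). MDC1 knockdown gave 1.17, 1.76 and 1.49 CPM, below every siNT_E2 library, without passing the test (log2 fold change -1.04 ± 0.47 SE, adjusted p = 0.139), which it did in a fit of those 6 libraries alone (adjusted p = 0.00545). Receptor knockdown gave 2.58, 1.97 and 2.38 CPM (log2 fold change -0.39 ± 0.45 SE, adjusted p = 0.587).

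In HCC1428, the siNT libraries stood at 123, 132 and 134 CPM of FN1 and the siNT_E2 libraries at 129, 141 and 135 CPM, with overlap (log2 fold change 0.07 ± 0.05 SE, adjusted p = 0.231). Each knockdown lowered FN1 slightly. The siER_E2 libraries stood at 122, 117 and 115 CPM (log2 fold change -0.23 ± 0.05 SE, adjusted p = 0.000667), the siFOXA1_E2 libraries at 115, 113 and 110 CPM (log2 fold change -0.29 ± 0.05 SE, adjusted p = 5.78e-05) and the siMDC1_E2 libraries at 104, 90.2 and 98.96 CPM (log2 fold change -0.47 ± 0.05 SE, adjusted p = 8.36e-07). All 9 knockdown libraries lay below all 3 siNT_E2 libraries.

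**Figure D3:**
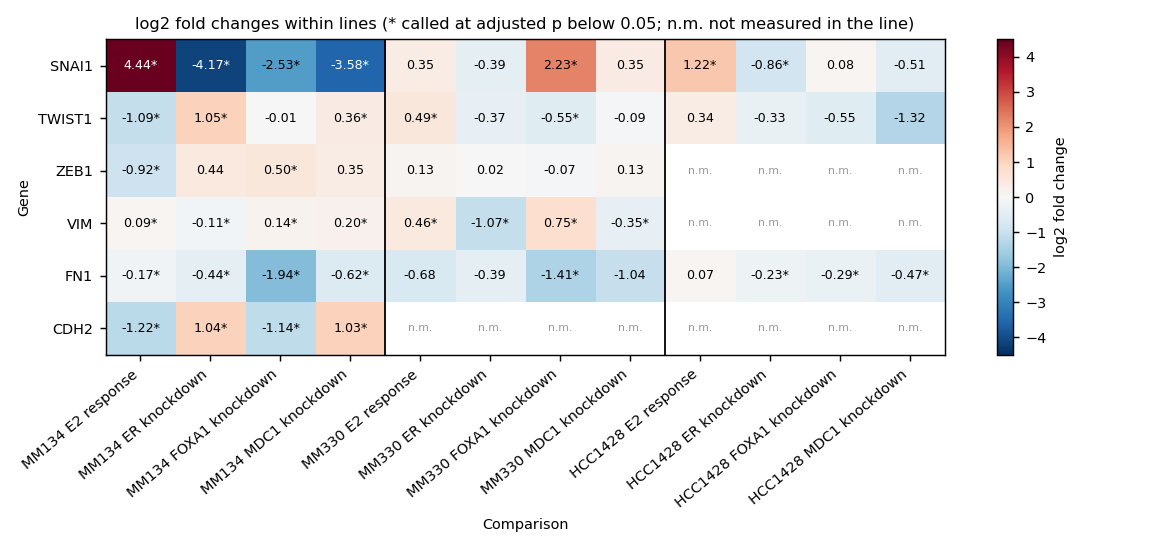
Log2 fold changes of the 6 genes (rows) in the 4 comparisons of each line (columns), coloured from blue (lower) to red (higher). An asterisk marks an adjusted p below 0.05, and n.m. marks a gene not measured in the line. SNAI1 passed the filter in MM330 through siFOXA1_E2 alone, and its asterisk there is no test result. The SNAI1 row runs from 4.44 for E2 to −4.17 for receptor knockdown in MM134.

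Counts of called genes are read beside the share of all tested genes called in the same comparison, since most comparisons called a large share. In MM134, E2 changed 6 of 6 measured genes (2 higher, 4 lower), where 54.4% of all tested genes were called. Receptor knockdown changed 5 of 6 (background 57.2%), FOXA1 knockdown 5 of 6 (56.3%) and MDC1 knockdown 5 of 6 (50.3%). In MM330, E2 changed 2 of 5 (26.3%), receptor knockdown 1 of 5 (32.5%), FOXA1 knockdown 4 of 5 (49.0%) and MDC1 knockdown 1 of 5 (20.8%). The 4 genes of FOXA1 knockdown include SNAI1, which passed the filter through that group alone, and without it 3 of 4 were called. In HCC1428, E2 changed 1 of 3 (54.8%), receptor knockdown 2 of 3 (51.2%), FOXA1 knockdown 1 of 3 (53.6%) and MDC1 knockdown 1 of 3 (29.1%). With 5 or 3 genes measured, the MM330 and HCC1428 counts lay on both sides of the background. The MM330 E2 count was 1 without siNT replicate 2, without siNT_E2 replicate 3 or without the libraries of higher pseudogene share. The MM330 receptor knockdown count was 2 without siNT_E2 replicate 1, and the MM330 MDC1 knockdown count was 0 without the libraries of higher pseudogene share. In HCC1428, the MDC1 knockdown count was 2 without siMDC1_E2 replicate 2, and it was also 2 without the libraries of higher pseudogene share. In all lines the knockdown comparisons share the siNT_E2 libraries with the E2 comparison.

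Differences between lines in a response were tested as interaction terms in a fit of all 45 libraries, for genes measured in both lines. That fit holds a single estimate of spread per gene for all lines. It can understate the spread of a line where the gene is noisier, such as FN1 and SNAI1 in MM330 and TWIST1 in HCC1428. The E2 response of SNAI1 was larger in MM134 than in HCC1428 (difference of log2 fold changes 3.25 ± 0.43 SE, adjusted p = 8.21e-08) and than in MM330 (4.09 ± 0.68 SE, adjusted p = 8.85e-06). The fall of SNAI1 on receptor knockdown was larger in MM134 than in HCC1428 (-3.37 ± 0.42 SE, adjusted p = 3.2e-08) and MM330 (-3.79 ± 0.68 SE, adjusted p = 2.45e-05). Its FOXA1 response differed between MM134 and HCC1428 (-2.65 ± 0.40 SE, adjusted p = 8.06e-07). SNAI1 passed the filter in MM330 through siFOXA1_E2 alone, so the FOXA1 differences with that line are a description with no test. They were -4.76 ± 0.50 SE for MM134 minus MM330 and 2.11 ± 0.51 SE for MM330 minus HCC1428. For TWIST1, the fall with E2 in MM134 differed from the responses in HCC1428 (-1.39 ± 0.34 SE, adjusted p = 0.00149) and MM330 (-1.56 ± 0.24 SE, adjusted p = 1.75e-06). The VIM responses of MM134 and MM330 differed in all 4 comparisons, from -0.62 for FOXA1 knockdown to 0.93 for receptor knockdown. The ZEB1 responses of MM134 and MM330 did not pass the test of the difference, the E2 response included (-1.03 ± 0.47 SE, adjusted p = 0.107). The FN1 response to FOXA1 knockdown was larger in MM134 than in HCC1428 (-1.70 ± 0.13 SE, adjusted p = 3e-14). Its difference between MM134 and MM330 (-0.43 ± 0.31 SE, adjusted p = 0.332) turned to 0.80 (adjusted p = 0.0296) without MM330 siFOXA1_E2 replicate 1. It was -0.80 (adjusted p = 0.0431) without replicate 2 of that group and -0.88 (adjusted p = 0.0367) without replicate 3.

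**Figure D4:**
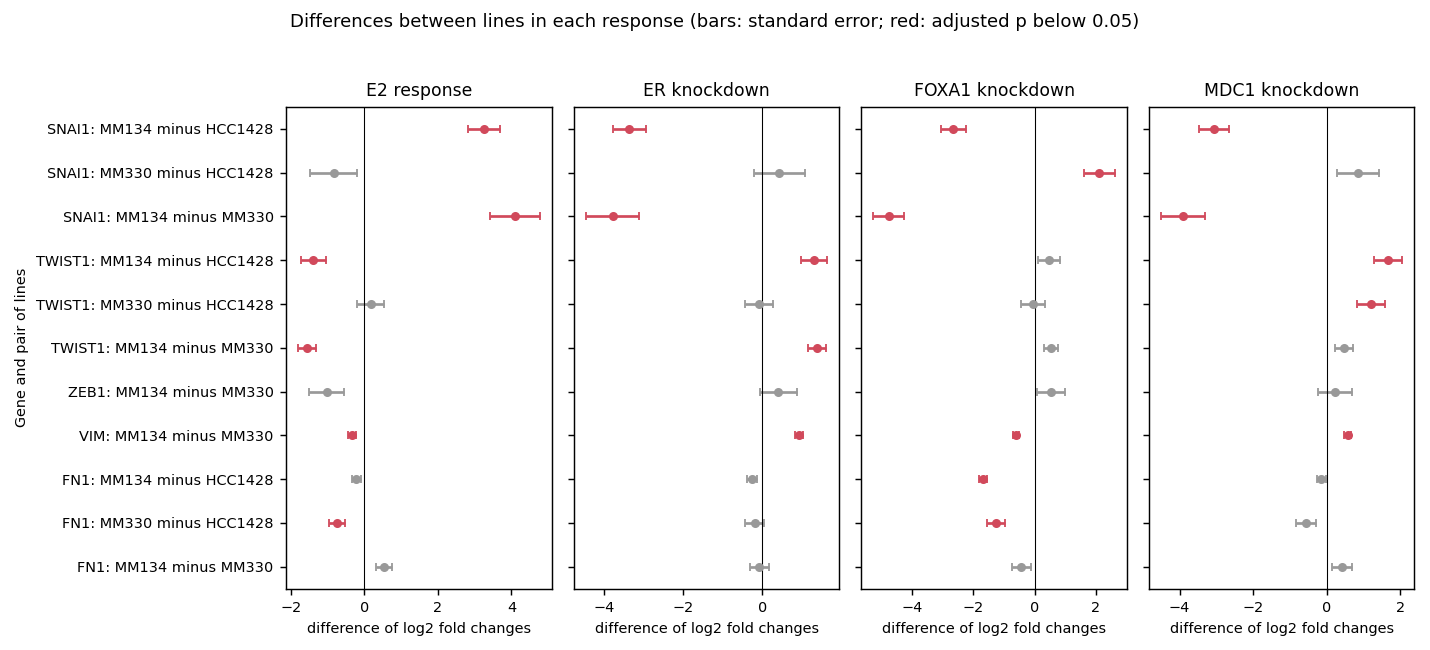
Differences between lines in the log2 fold change of each response, for genes measured in both lines of a pair (points, with SE bars). Red points had an adjusted p below 0.05. SNAI1 passed the filter in MM330 through siFOXA1_E2 alone, and its FOXA1 knockdown points with that line are no test result. The SNAI1 points with MM134 lie at 3.25 and 4.09 for E2 and on the negative side for the 3 knockdowns.

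As counts, 2 of 3 genes differed in the E2 response between MM134 and HCC1428, where 26.5% of all tested genes did. The other responses of this pair gave 2 of 3 for receptor knockdown (24.5%), 2 of 3 for FOXA1 knockdown (30.5%) and 2 of 3 for MDC1 knockdown (18.6%). Between MM134 and MM330, the counts in the same order were 3 of 5 (26.2%), 3 of 5 (25.4%), 2 of 5 (29.1%) and 2 of 5 (20.8%). Between MM330 and HCC1428, they were 1 of 3 (28.3%), 0 of 3 (25.3%), 2 of 3 (22.2%) and 1 of 3 (13.8%). Without the libraries of higher pseudogene share, TWIST1 was called for FOXA1 knockdown in MM134 minus MM330 (0.69, adjusted p = 0.0105), which made that count 3 of 5. The count for receptor knockdown between MM134 and HCC1428 was then 1 of 3, and those for E2 and MDC1 knockdown between MM330 and HCC1428 were 0 of 3. The counts for FOXA1 knockdown with MM330 include SNAI1, which was measured in MM330 through its siFOXA1_E2 group alone. The vehicle levels of all genes measured in both lines differed, 3 of 3 between MM134 and HCC1428 (75.6% of all tested genes), 5 of 5 between MM134 and MM330 (72.4%) and 3 of 3 between MM330 and HCC1428 (73.0%). In siNT, the log2 difference MM134 minus HCC1428 was -1.83 ± 0.33 SE (adjusted p = 5.79e-06) for SNAI1 and 5.35 ± 0.22 SE (adjusted p = 4.82e-24) for TWIST1. Against MM330, MM134 siNT was higher in VIM by 4.30 ± 0.07 SE (adjusted p = 4.44e-38) and in FN1 by 5.64 ± 0.12 SE (adjusted p = 5.46e-34). The ductal line thus had more SNAI1 than either lobular line in vehicle, less TWIST1 than either, and almost no VIM.

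Other genes of the programme were followed in lists, each count beside the share of all tested genes called in that comparison (background). Of the TGF-beta pathway, the best known inducer of the transition, 19 of 22 genes were tested in MM134, of which 14 fell and 2 rose with E2 (background 54.4%, median log2 fold change -0.37, beside -0.03 over all genes tested). With receptor knockdown 13 rose and 1 fell (background 57.2%, median 0.43, all genes 0.04). With FOXA1 knockdown 13 rose and 4 fell (background 56.3%, median 0.27, all genes 0.01), and with MDC1 knockdown 13 rose and 1 fell (background 50.3%, median 0.32, all genes -0.00039). With E2, the ligand gene TGFB3 went from 140 to 59.3 CPM (log2 fold change -1.25 ± 0.04 SE), the signal transducer SMAD3 from 145 to 63.3 CPM (-1.21 ± 0.04 SE) and ID3, an inhibitor of helix-loop-helix factors, from 142 to 58.6 CPM (-1.28 ± 0.05 SE). The receptor gene TGFBR2 rose with each knockdown, from 0.486 to 2.53 CPM with that of FOXA1 (2.39 ± 0.21 SE). In MM330, 9 of 20 genes of this list fell with E2 and 0 rose (background 26.3%, median -0.14, all genes -0.0044), and 6 fell without the libraries of higher pseudogene share. With receptor knockdown 8 rose and 1 fell there (background 32.5%, median 0.19, all genes 0.00). In the same line, 11 rose and 3 fell with FOXA1 knockdown (background 49.0%, median 0.30, all genes -0.01), and 7 rose and 2 fell with MDC1 knockdown (background 20.8%, median 0.15, all genes 0.0016). In HCC1428, 10 of 18 fell with E2 and 2 rose (background 54.8%, median -0.24, all genes -0.03), and with receptor knockdown 9 rose and 1 fell (background 51.2%, median 0.32, all genes -0.0046). FOXA1 knockdown gave 8 higher and 2 lower there (background 53.6%, median 0.06, all genes -0.03), and MDC1 knockdown 7 higher and 2 lower (background 29.1%, median 0.13, all genes -0.01). TGFB3 fell with E2 in these lines too, from 130 to 70.5 CPM in MM330 and from 18.1 to 6.75 CPM in HCC1428.

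Epithelial junction genes, which SNAI1 and the ZEB factors repress in other settings, gave 2 higher and 9 lower of 16 tested with E2 in MM134 (background 54.4%, median -0.14, all genes -0.03). The tight junction gene CLDN4 went from 310 to 209 CPM (-0.58 ± 0.04 SE). FOXA1 knockdown in MM134 gave 11 higher and 2 lower (background 56.3%, median 0.33, all genes 0.01), and MDC1 knockdown 11 higher and 1 lower (background 50.3%, median 0.32, all genes -0.00039). Receptor knockdown gave 6 higher and 6 lower (background 57.2%, median -0.03, all genes 0.04). CDH1 was 21.95 ± 1.83 CPM in MM134 siNT and 20.2 ± 0.608 in siNT_E2, and the difference was not called (log2 fold change -0.13 ± 0.07 SE, adjusted p = 0.118). In MM330, receptor knockdown gave 8 lower and 0 higher of 15 (background 32.5%, median -0.16, all genes 0.00), with MARVELD2, a tricellular junction gene, going from 76.95 to 35.7 CPM (-1.11 ± 0.04 SE). Without the libraries of higher pseudogene share, 6 were lower. In the same line, FOXA1 knockdown gave 7 higher and 2 lower (background 49.0%, median 0.08, all genes -0.01), and MDC1 knockdown 4 higher and 2 lower (background 20.8%, median 0.03, all genes 0.0016). In HCC1428, E2 gave 5 higher and 8 lower of 16 (background 54.8%, median -0.16, all genes -0.03), and receptor knockdown 9 higher and 7 lower (background 51.2%, median 0.18, all genes -0.0046). FOXA1 knockdown there gave 9 higher and 2 lower (background 53.6%, median 0.15, all genes -0.03), and MDC1 knockdown 7 higher and 0 lower (background 29.1%, median 0.13, all genes -0.01). Of the epithelial transcription and splicing factors, 5 of 9 fell and 1 rose with E2 in MM134 (background 54.4%, median -0.22, all genes -0.03), KLF5 from 37.9 to 20.8 CPM (-0.88 ± 0.05 SE), and 7 of 9 rose with MDC1 knockdown with 0 lower (background 50.3%, median 0.23, all genes -0.00039). In MM330, 6 of 10 fell and 2 rose with E2 (background 26.3%, median -0.14, all genes -0.0044). With MDC1 knockdown 5 rose and 2 fell there (background 20.8%, median 0.18, all genes 0.0016). In HCC1428, 4 of 10 fell and 3 rose with E2 (background 54.8%, median -0.09, all genes -0.03). Receptor knockdown gave 6 higher and 2 lower there (background 51.2%, median 0.15, all genes -0.0046), and MDC1 knockdown 3 higher and 0 lower (background 29.1%, median 0.14, all genes -0.01).

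Mesenchymal cytoskeleton and matrix genes moved in both directions. In MM134, 4 of 22 rose and 6 fell with E2 (background 54.4%, median -0.06, all genes -0.03). SPARC, a matrix protein gene, went from 12.8 to 5.84 CPM (-1.15 ± 0.09 SE), and MSN, which encodes the membrane linker moesin, from 39.7 to 70.3 CPM (0.81 ± 0.04 SE). In MM330, FOXA1 knockdown gave 10 higher and 2 lower of 19 (background 49.0%, median 0.46, all genes -0.01). SPARC went from 0.644 to 10.4 CPM (4.01 ± 0.23 SE) and TNC, the matrix protein tenascin C, from 2.34 to 24.2 CPM (3.36 ± 0.17 SE), in the group where VIM also rose. In HCC1428, the same knockdown gave 5 higher and 6 lower of 19 (background 53.6%, median -0.10, all genes -0.03).

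Of 12 other transition factors, 7 were tested in each line, and 2 rose and 2 fell with E2 in MM134 (background 54.4%, median 0.15, all genes -0.03). KLF8, a zinc finger factor, went from 4.86 to 2.62 CPM (-0.90 ± 0.18 SE), FOXC1, a forkhead factor, from 7.17 to 12.5 CPM (0.79 ± 0.10 SE) and TCF3, a partner of TWIST1, from 192 to 260 CPM (0.43 ± 0.03 SE). In HCC1428, SOX9 went from 3.29 to 0.490 CPM with E2 (-2.70 ± 0.25 SE). Of 20 partners and regulators of SNAI1, 7 rose and 8 fell with E2 in MM134 (background 54.4%, median 0.03, all genes -0.03). Among them SUZ12, a subunit of the Polycomb repressive complex, went from 74.4 to 101 CPM (0.44 ± 0.05 SE), KDM1A, a histone demethylase that SNAI1 recruits, from 141 to 187 CPM (0.40 ± 0.03 SE), and FBXL14, which marks SNAI1 protein for degradation, from 19.8 to 14.98 CPM (-0.41 ± 0.09 SE). MTA3, whose protein is known as a repressor of SNAI1 in breast cells, went from 101 to 75.5 CPM with E2 in MM330 (-0.41 ± 0.04 SE). Genes named from the lists all had an adjusted p below 0.05 unless a value says otherwise.

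The genes whose pattern was most like that of each member were found by Pearson correlation of log2 CPM centred within lines, as a description over libraries that share lines and treatments. For SNAI1, over 45 libraries and 14932 genes, these were BAHCC1 (r = 0.84), TASOR2 (0.84), NEIL2 (0.84), H19 (0.84) and SDK2 (0.84). For TWIST1 they were MEX3B (0.66), ZSWIM5 (0.64) and DTX3L (0.61), and for FN1 ISOC1 (0.85), UMODL1 (0.84) and TLE3 (0.82). Over the 30 libraries of MM134 and MM330, VIM was most like TBL1X, RHOBTB3 and GFRA2 (each 0.91), and ZEB1 most like AC135050.5 (0.71), EDRF1-DT (0.70) and AL513477.2 (0.67). Over the 15 libraries of MM134, CDH2 was most like TNS3, SVIL and KIAA1549 (each 0.99).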

How the data were processed

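The authors deposited 1 table of raw read counts per gene symbol for the 45 libraries (stranded mRNA libraries, read in pairs of 150 bases). STAR 2.6.0a and hg38 are named per the submitters' processing notes, and the counting tool, the annotation and the strand setting are not given in the sources used here. Of 57353 symbols, 16974 had no count, 27 had turned into dates and 2 were repeated. Positions came from GENCODE 29, which held 56598 of the symbols. A count gives its own precision, and members at few counts are printed with them.

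Counts of the 15 libraries of a line were filtered with filterByExpr, scaled by TMM and fitted with edgeR's quasi-likelihood test (edgeR 4.0.16, limma 3.58.1, R 4.3.3), with Benjamini-Hochberg adjustment over all genes and a threshold of 0.05. All adjusted p-values are from this test unless another tool is named. SE is the size of the log2 fold change divided by the square root of F. CPM used TMM-scaled totals of all 45 libraries. Differences between lines were contrasts of a fit of all 45 libraries. In simulated counts of the MM134 E2 comparison (17744 genes), 100 genes were changed by 1 log2 unit and 100 by 2, in siNT_E2 alone. Of those left after the filter, 78.8% and 94.9% were recovered, and 4.47% of calls were false. The real comparison called 54.4% of genes, and scaling and false calls at such a share were not tested.

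The 8 members and 10 gene lists (other transition factors, epithelial transcription and splicing factors, epithelial junction genes, mesenchymal cytoskeleton and matrix, TGF-beta pathway, SNAI1 partners and regulators, luminal epithelium, fibroblast, immune and endothelial markers) were chosen with earlier results of these data known. Per list and comparison, up to 3 called genes with the largest change and at least 1 CPM in a group could be named, and CDH1 was named as a marker. Likeness used log2 CPM with a prior count of 2, and named the 5 genes most like SNAI1 and 3 for each other member. Alternatives were DESeq2 1.42.0, limma-voom, RLE scaling, no filter, the compared libraries alone, a replicate block and leaving out each library. Leaving out the libraries of higher pseudogene share was added after the data were seen. Same-numbered libraries did not deviate together, so numbers were not used as pairs.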

Additional observations from a re-analysis of the deposited data

Results flagged for a closer look

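Of 44 differences between lines in the response of a member measured in both, 22 had an adjusted p below 0.05 in edgeR's quasi-likelihood test of the interaction. Over all tested genes, 13.8% to 30.5% passed in the same contrasts. The 44 are not separate results, since the responses of a line share its siNT_E2 libraries and the pairs share lines. The values are differences of log2 fold changes, the first line minus the second.

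SNAI1 accounted for 9 of them. MM134 minus HCC1428 gave 3.25 (adjusted p = 8.21e-08) for E2, -3.37 (adjusted p = 3.2e-08) for receptor knockdown, -2.65 (adjusted p = 8.06e-07) for FOXA1 knockdown and -3.06 (adjusted p = 2.31e-07) for MDC1 knockdown. MM134 minus MM330 gave 4.09 (adjusted p = 8.85e-06), -3.79 (adjusted p = 2.45e-05), -4.76 and -3.91 (adjusted p = 2.2e-06) in the same order. For FOXA1 knockdown, MM330 minus HCC1428 was 2.11. The MM330 libraries hold 1 to 29 SNAI1 counts each, and SNAI1 was measured in that line through its siFOXA1_E2 group alone. The FOXA1 knockdown differences with MM330 are therefore a description with no test, although they are counted among the 9.

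TWIST1 accounted for 6. MM134 minus HCC1428 gave -1.39 (adjusted p = 0.00149) for E2, 1.31 (adjusted p = 0.00292) for receptor knockdown and 1.67 (adjusted p = 0.001) for MDC1 knockdown. MM134 minus MM330 gave -1.56 (adjusted p = 1.75e-06) for E2 and 1.39 (adjusted p = 1.21e-05) for receptor knockdown. For MDC1 knockdown, MM330 minus HCC1428 gave 1.21 (adjusted p = 0.029). That last call was lost without HCC1428 siMDC1_E2 replicate 1 (0.84, adjusted p = 0.19), HCC1428 siNT_E2 replicate 3 (1.01, adjusted p = 0.112), MM330 siMDC1_E2 replicate 2 (adjusted p = 0.0562) or MM330 siNT_E2 replicate 1 (adjusted p = 0.0554). Without the libraries of higher pseudogene share it was also lost (adjusted p = 0.0647), as was receptor knockdown in MM134 minus HCC1428 (1.01, adjusted p = 0.153). TWIST1 in HCC1428 had 3 to 18 counts per library.

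VIM accounted for 4, all in MM134 minus MM330, at -0.33 (adjusted p = 0.0091) for E2, 0.93 (adjusted p = 2.09e-09) for receptor knockdown, -0.62 (adjusted p = 1.15e-06) for FOXA1 knockdown and 0.56 (adjusted p = 2.47e-05) for MDC1 knockdown.

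FN1 accounted for 3. FOXA1 knockdown gave -1.70 (adjusted p = 3e-14) in MM134 minus HCC1428 and -1.26 (adjusted p = 0.00101) in MM330 minus HCC1428. The latter was -2.49 without MM330 siFOXA1_E2 replicate 1 and -0.81 without replicate 3 of that group. The E2 response gave -0.75 (adjusted p = 0.00525) in MM330 minus HCC1428, and -0.63 (adjusted p = 0.106) without the libraries of higher pseudogene share. In the fit of MM330 alone, FN1 had an SE of 0.44 for E2 and 0.48 for FOXA1 knockdown. The differences with HCC1428 had smaller SE, 0.21 and 0.29, so their p-values can understate the MM330 spread.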

How the results depend on the processing

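Of the 12 counts of called members, 7 stayed within 1.5 times their reported value under every alternative. In MM330, the E2 count of 2 was 1 without the libraries of higher pseudogene share and with no filter. The receptor knockdown count of 1 was 2 with limma-voom and with RLE scaling. The MDC1 knockdown count of 1 was 2 with the compared libraries only, limma-voom and no filter, and 0 without the libraries of higher pseudogene share. In HCC1428, the E2 count of 1 was 2 without the libraries of higher pseudogene share and with no filter, where the added gene was CDH2, which is not measured there, and 1 of the 3 measured genes was called as before. The MDC1 knockdown count of 1 was 3 with the compared libraries only and 2 with DESeq2, limma-voom, no filter or the lower pseudogene share. Without each library in turn, the counts ranged from 1 to 2 for E2 and for receptor knockdown in MM330 and for MDC1 knockdown in HCC1428, from 5 to 6 for receptor knockdown and 4 to 5 for FOXA1 knockdown in MM134, and from 3 to 4 for FOXA1 knockdown in MM330. Of 56 member comparisons within a line, 46 kept their direction and call under all alternatives, and over 721 alternative values 15 lost and 16 gained a call. Of 748 values for the responses between lines, 8 lost and 16 gained a call, and 1 reversed: FN1 after FOXA1 knockdown in MM134 minus MM330 was 0.80 without MM330 siFOXA1_E2 replicate 1, the highest value without a library, the lowest being -0.88 without replicate 3 of that group. The cause of these changes was not tested. Over all genes, the calls for E2 in MM330 went from 4690 to 3092 and for MDC1 knockdown in MM330 from 3710 to 2208 without the libraries of higher pseudogene share. The median log2 fold change of all genes moved by at most 0.0299 with RLE scaling and 0.0516 without those libraries. Of the gene lists, the mesenchymal cytoskeleton and matrix list after FOXA1 knockdown in HCC1428 went from 5 higher and 6 lower to 7 and 6 with RLE scaling, and the junction list after receptor knockdown in MM330 from 8 lower to 6 without the libraries of higher pseudogene share. Low counts limit SNAI1 and ZEB1 in MM330 and TWIST1 in HCC1428.

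Replicate numbers did not pair the libraries: the mean correlation of same-numbered libraries' deviations was −0.018 in MM134, −0.060 in MM330 and 0.023 in HCC1428. With a replicate block, the counts of called members were those reported. The block ended the ZEB1 call of siER_E2 against siNT in MM134 (-0.48, adjusted p = 0.0644) and the TWIST1 call for MDC1 knockdown in MM330 minus HCC1428 (1.24, adjusted p = 0.0541).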
